A study of Mus musculus with 12 samples.

Results

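The genes described here encode the machinery that carries Ca2+ across the inner mitochondrial membrane. The 7 members, *Mcu*, *Micu2*, *Micu3*, *Smdt1*, *Mcur1*, *Letm1* and *Slc8b1*, were chosen by name, and all 7 were found among the 55367 distinct gene symbols of the deposited tables. RNA-seq values were available for 12 samples of single muscle fibers (multinucleate muscle cells isolated one by one) from the extensor digitorum longus (EDL), a fast muscle of the lower hindlimb. Fibers were freed with collagenase and stained with Fluo-4, a fluorescent Ca2+ indicator, and fibers of aged mice were sorted under a stereomicroscope by their fluorescence. The 3 groups of 4 samples were fibers of young C57BL/6J mice (Young, 3 to 4 months of age), Fluo-4 normal fibers of aged mice and Fluo-4 abnormal fibers of aged mice (both 26 to 28 months), and no transgene or drug is named for any group. The study describes Fluo-4 abnormal fibers as a feature of aged male mice, seldom seen in females, and the labels give no sex. The numbers of fibers and mice behind a sample were not given in the sources used here. Nothing in them ties a replicate to a separate mouse, so the p-values measure the spread between these samples.

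Mitochondria take up Ca2+ through the uniporter, a channel driven by the voltage across the inner membrane. *Mcu* encodes its pore and *Smdt1* encodes EMRE, a small protein that the pore needs to open and that ties it to its gatekeepers. *Micu2* and *Micu3* encode Ca2+-binding gatekeepers, which keep the pore shut at resting cytosolic Ca2+ and let it open when Ca2+ rises. *Mcur1* encodes a factor for assembly of the uniporter, *Letm1* an inner membrane cation exchanger needed for potassium balance and also linked to Ca2+, and *Slc8b1* the sodium/calcium exchanger NCLX, which lets Ca2+ out. In working muscle, Ca2+ that enters the matrix activates dehydrogenases and so matches ATP production to contraction.

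The members differed widely in transcript abundance. Levels are given in TPM (transcript counts scaled to a fixed total in each sample), which are corrected for transcript length, so that levels of different genes in a sample can be compared. *Smdt1* was the most abundant, with a mean of 259 TPM over the 12 samples, followed by *Letm1* with 38.9, *Micu2* with 18.9, *Mcur1* with 15.2, *Mcu* with 13.4, *Micu3* with 10.9 and *Slc8b1* with 1.14 TPM. *Smdt1* alone made up 72.5% of the summed mean TPM of the 7 genes. Each gene exceeded the next one in this order in all 12 samples, except that *Mcur1* exceeded *Mcu* in 9 of 12 and *Mcu* exceeded *Micu3* in 11 of 12. The order of *Mcur1* and *Mcu*, and that of *Mcu* and *Micu3*, therefore varied between samples, whereas *Mcur1* exceeded *Micu3* in every sample. The EMRE transcript was thus measured at a level far above that of the pore in every group, with *Smdt1* to *Mcu* ratios of 14.4 to 25.5. Genes on the opposite strand overlap annotated *Smdt1* exons (below), and their part in this level was not tested.

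**Figure D1:**
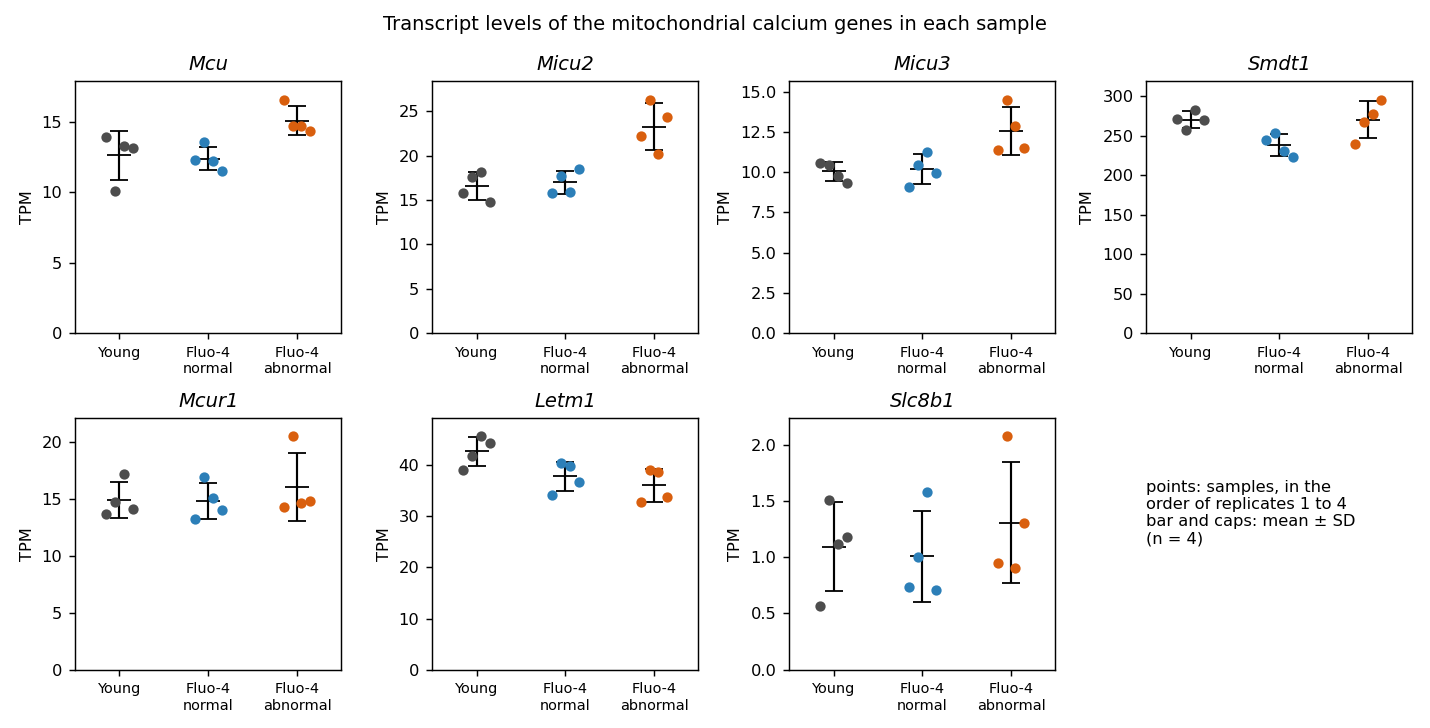
TPM of each of the 7 genes (vertical axis, from 0) in the Young, Fluo-4 normal and Fluo-4 abnormal groups. Points are samples in the order of replicates 1 to 4, and bars and caps are the mean and SD (n = 4); the Fluo-4 abnormal points lie above all others for *Mcu*, *Micu2* and *Micu3*.

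The gatekeeper *Micu2* was the only member that passed after adjustment in the main limma fit, in both comparisons of abnormal fibers. Against normal fibers *Micu2* did not pass in 7 of 25 alternatives (below). Its level was 22.2, 26.3, 20.2 and 24.4 TPM in the 4 Fluo-4 abnormal samples, against 15.8, 17.7, 15.9 and 18.5 TPM in the Fluo-4 normal and 15.8, 17.6, 18.2 and 14.8 TPM in the Young samples. Every abnormal sample was above every sample of the other groups, whereas normal and Young samples overlapped. Mean levels were 23.3 ± 2.63, 17.0 ± 1.34 and 16.6 ± 1.57 TPM (SD, n = 4 each). In limma on log2(TPM + 1), *Micu2* rose in abnormal against normal fibers by 0.43 (SE 0.10, adjusted p = 0.0198), that is 1.37-fold between the means, and against Young fibers by 0.46 (SE 0.10, adjusted p = 0.0146). Between normal and Young fibers the difference was 0.03 (95% interval -0.19 to 0.25, adjusted p = 0.938). In the 4 pairs of same-numbered aged samples, the abnormal sample was higher by 0.33 to 0.55 on the log2 scale.

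The size of the *Micu2* difference depended on how the samples were scaled to each other. TPM is a share of all RNA in a sample, so a few abundant transcripts can shift all others, and in bulk RNA fewer cells of a type and less RNA per cell cannot be told apart. Trimmed-mean (TMM-type) factors, which align the bulk of genes between samples, lowered the median change of all genes between abnormal and normal fibers from 0.10 to 0 and that of *Micu2* to 0.21 (adjusted p = 0.202, limma). Against Young fibers the *Micu2* change became 0.30 (adjusted p = 0.0544, limma), and its adjusted p was 0.0535 without Young replicate 4. Between abnormal and normal fibers the adjusted p was 0.0645 without abnormal replicate 2 and 0.0511 without abnormal replicate 4, and over the 25 alternatives it ranged from 0.00832 to 0.349.

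*Mcu*, which encodes the pore, was measured at 16.6, 14.8, 14.7 and 14.3 TPM in the abnormal, 12.3, 13.6, 12.2 and 11.5 TPM in the normal and 14.0, 10.1, 13.3 and 13.2 TPM in the Young samples. Each abnormal value exceeded every value of both other groups. The difference between abnormal and normal fibers was 0.26 on the log2 scale (SE 0.11, 95% interval 0.03 to 0.50) with an adjusted p of 0.144 (limma), and that between abnormal and Young fibers was 0.25 (adjusted p = 0.190), so neither passed. With TMM-type factors the first difference was 0.05, with an adjusted p of 0.885 in limma. Normal and Young fibers had means of 12.4 ± 0.842 and 12.6 ± 1.73 TPM (SD, n = 4 each), a difference of -0.02.

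*Micu3*, also a gatekeeper gene, followed the same order of groups. Values were 11.4, 14.5, 12.9 and 11.5 TPM in the abnormal, 9.05, 10.5, 11.3 and 9.94 TPM in the normal and 10.6, 10.5, 9.78 and 9.35 TPM in Young fibers. The lowest abnormal sample was just above the highest normal sample, and no abnormal value fell within the range of either other group. The log2 difference was 0.28 against normal fibers (SE 0.11, adjusted p = 0.122) and 0.29 against Young fibers (adjusted p = 0.116) in limma, and 0.07 and 0.13 with TMM-type factors. The 95% intervals of 0.05 to 0.51 and 0.06 to 0.52 left out 0 before adjustment over all genes.

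*Smdt1*, the EMRE gene, was lowest in Fluo-4 normal fibers. It was measured at 244, 253, 230 and 223 TPM there, at 271, 257, 283 and 270 TPM in the Young samples, and at 240, 267, 277 and 295 TPM in the abnormal samples. All normal samples were below all Young samples, whereas abnormal replicate 1 was below 2 of the normal samples. The difference between normal and Young fibers was -0.19 (SE 0.07, 95% interval -0.34 to -0.03, adjusted p = 0.263 in limma). Between abnormal and normal fibers it was 0.18 (adjusted p = 0.124), with an adjusted p of 0.0370 without abnormal replicate 1 and a turned sign, -0.05, with TMM-type factors. Abnormal and Young fibers both averaged near 270 TPM, at 269.9 ± 23.2 and 270.2 ± 10.3 TPM (SD, n = 4 each). In the libraries, which do not keep the strand, part of the annotated *Smdt1* exons (462 bp) overlap those of *Ndufa6*, a complex I subunit gene on the opposite strand with 773 to 1116 TPM, although none of that overlap is in the canonical *Smdt1* transcript. A non-coding gene on the opposite strand, *Gm62022*, covers 360 bp of the canonical transcript and was not analysed here. *Ndufa6* averaged 828 ± 50.2 TPM in abnormal and 999.9 ± 83.1 TPM in normal fibers, the opposite order to *Smdt1*.

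*Letm1*, the exchanger gene, had its highest mean in Young fibers and its lowest in abnormal fibers. Its levels were 32.8, 39.0, 38.7 and 33.9 TPM in the abnormal, 34.2, 40.5, 39.8 and 36.7 TPM in the normal and 39.1, 41.8, 45.6 and 44.4 TPM in the Young samples. Abnormal and normal fibers overlapped, and every abnormal sample was below every Young sample, the highest abnormal one only narrowly so. The difference between abnormal and Young fibers was -0.24 (SE 0.09, adjusted p = 0.103 in limma), and it passed with TMM-type factors, at -0.41 with an adjusted p of 0.00693. Between abnormal and normal fibers the difference was -0.07 (95% interval -0.25 to 0.12, adjusted p = 0.659 in limma) and -0.29 with TMM-type factors (adjusted p = 0.0517). In all 4 same-numbered pairs the abnormal sample was lower, by -0.04 to -0.11 on the log2 scale. Normal against Young fibers gave -0.17 (adjusted p = 0.419).

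*Mcur1* and *Slc8b1* showed no difference past the threshold in any comparison. *Mcur1* was measured at 14.2, 20.5, 14.6 and 14.8 TPM in the abnormal, 13.2, 16.9, 15.1 and 14.0 TPM in the normal and 13.6, 14.7, 17.2 and 14.1 TPM in the Young samples. Its log2 difference between abnormal and normal fibers, 0.10 (95% interval -0.17 to 0.37), was -0.02 without abnormal replicate 2 and -0.11 with TMM-type factors. *Slc8b1*, the Ca2+ exit route, was the least abundant member, with a mean above that of 38.3% of the genes tested. It was measured at 0.947, 2.07, 0.908 and 1.30 TPM in the abnormal, 0.736, 1.00, 1.58 and 0.713 TPM in the normal and 0.567, 1.51, 1.12 and 1.18 TPM in the Young samples. The samples of each group spread over more than the distance between group means, and the interval of its difference between abnormal and normal fibers, -0.23 to 0.62, spanned both directions.

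**Figure D2:**
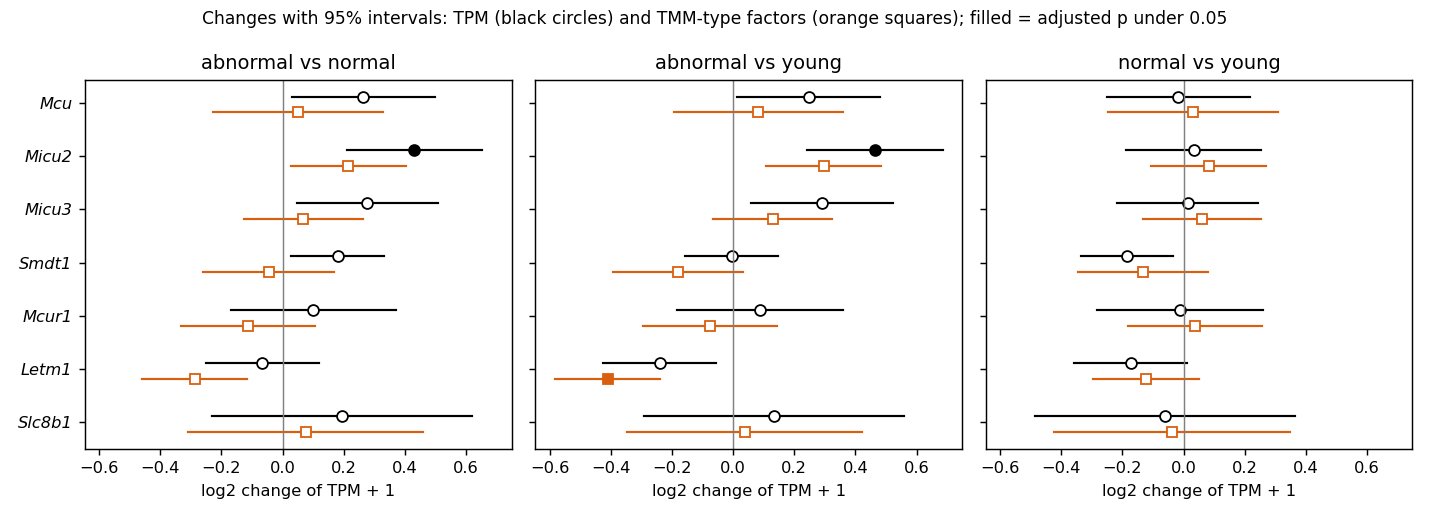
Log2 change of TPM + 1 (horizontal axis) with 95% intervals for each gene in the 3 comparisons, from TPM as deposited (black circles) and with TMM-type factors (orange squares). Filled symbols passed an adjusted p of 0.05: *Micu2* on TPM in both comparisons of abnormal fibers, and *Letm1* with TMM-type factors in abnormal against Young fibers.

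Counted together, 1 of the 7 members passed in abnormal against normal fibers, where 9.35% of the 14425 genes tested did, 1 of 7 in abnormal against Young fibers (background 8.51%), and 0 of 7 in normal against Young fibers (background 1.15%), all by limma with Benjamini-Hochberg adjustment. At an unadjusted p under 0.05 the counts were 4 of 7 against 25.6% of all genes, 4 of 7 against 23.0%, and 1 of 7 against 12.9%. The groups did not overlap for 3 members in abnormal against normal fibers (*Mcu*, *Micu2*, *Micu3*, all higher), where this held for 14.0% of all genes. They did not overlap for 4 members in abnormal against Young fibers (the same 3 and *Letm1*, lower; background 16.2%) and for 1 in normal against Young fibers (*Smdt1*, lower; background 7.99%). Both comparisons of abnormal fibers share the abnormal samples. The median change of the members was 0.19, 0.13 and -0.02 in these 3 comparisons, against 0.20, 0.12 and -0.07 for the 5994 genes with a mean of at least 5 TPM, so the member medians were close to those of other genes of moderate abundance. Of the 1349 genes that passed between abnormal and normal fibers, 1062 were higher and 287 lower, and with TMM-type factors 308 were higher and 544 lower. With same-numbered aged samples as pairs 2281 genes passed, and *Micu2* was again the 1 member.

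Fiber type and other cells were examined beside these values. Defining myofiber genes (*Acta1*, *Ckm*, *Ttn*, *Mb*, *Myh4*) summed to 66012 to 95536 TPM in each sample. *Myh4*, the fastest of the adult myosin heavy chains, made up 98.9% to 99.7% of the adult myosin heavy chain TPM in abnormal, 93.7% to 99.2% in normal and 96.9% to 98.6% in Young samples. With the *Myh4* share as a covariate the *Micu2* difference was 0.44, with an adjusted p of 0.0924 in limma. With pairs as well it was 0.33 with an adjusted p of 0.349, where 22 genes passed in all. The share of mitochondrially-encoded transcripts was 4.75% to 6.92% in abnormal, 8.75% to 10.9% in normal and 7.35% to 8.01% in Young samples, and without these transcripts in the scaling *Micu2* was higher by 0.37 between abnormal and normal fibers (adjusted p = 0.0471, limma). Of the marker sums for other cell types, Schwann cell genes (3 of 3 detected) were at 3.35 to 7.11 TPM in abnormal, 1.32 to 6.05 in normal and 0.773 to 1.81 TPM in Young samples, and immune genes reached 0.407 to 2.95, 0.062 to 0.659 and 0 to 0.449 TPM. Endothelial genes reached at most 8.13 TPM and satellite cell genes 0.534 TPM, and the 3 adipocyte genes were at 0 in all samples. Fibroblast genes ranged from 12.9 to 74.1 TPM, erythroid genes from 33.1 to 480.4 TPM, and smooth muscle genes from 0.302 to 4.47 TPM except for 46.7 TPM in 1 Young sample. Their part in the *Micu2* difference was not tested.

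Ratios within a sample do not depend on how samples are scaled, so each member was also set against *Mcu*. The ratio of *Letm1* to *Mcu* was 1.97, 2.64, 2.63 and 2.36 in the abnormal, 2.77, 2.99, 3.26 and 3.18 in the normal and 2.80, 4.14, 3.43 and 3.37 in the Young samples. All abnormal samples were below all others. The log2 ratio differed by -0.35 between abnormal and normal and by -0.51 between abnormal and Young fibers, each with p = 0.0286 in a two-sided exact permutation test, the smallest that 4 against 4 samples allow, and 0.257 after adjustment over 18 tests. Against *Mcu*, 13.6% and 15.5% of 5993 genes with at least 5 TPM were likewise lower without overlap in these 2 comparisons. The arrangements take no account of pairs: over the 4 same-numbered aged pairs, where *Letm1* relative to *Mcu* was lower in 4 of 4, the exact sign-flip p was 0.125, the smallest that 4 pairs allow. The *Micu2* to *Mcu* ratio averaged 1.55 ± 0.225 in abnormal, 1.37 ± 0.154 in normal and 1.34 ± 0.292 in Young samples (SD, n = 4 each), and its groups overlapped (difference 0.17 between abnormal and normal fibers, exact permutation p = 0.171). The *Micu3* to *Mcu* ratio was nearly the same in all groups, at 0.836, 0.822 and 0.810. None of the 18 tests passed after adjustment, and 2 had an unadjusted p under 0.05, both for *Letm1*.

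**Figure D3:**
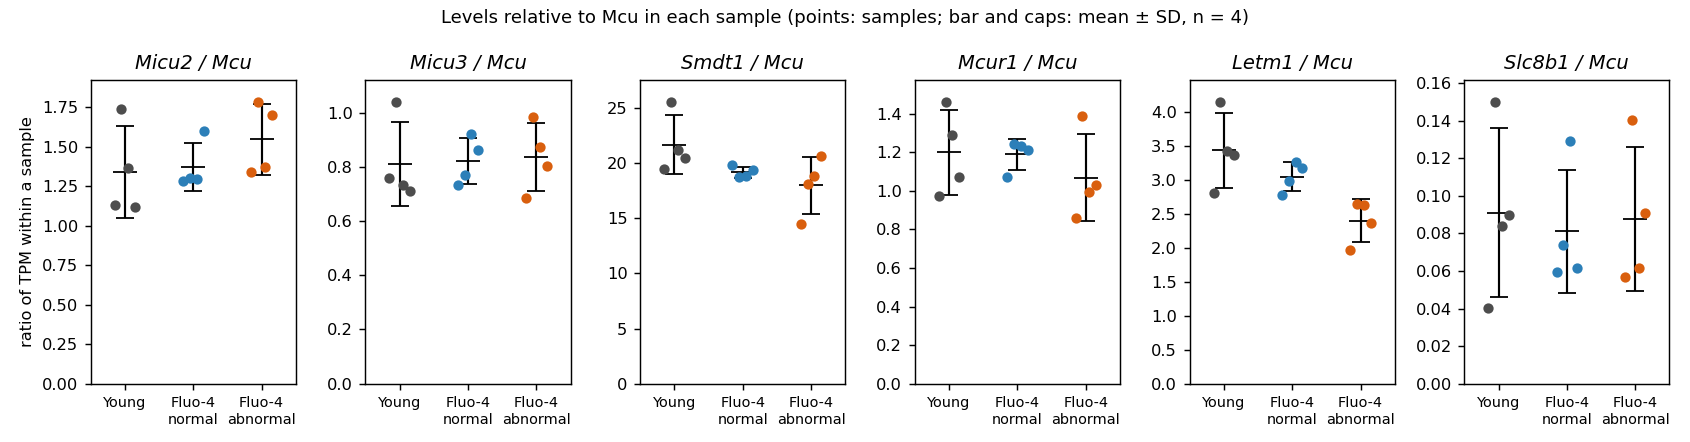
Ratio of the TPM of each member to that of *Mcu* in the same sample (vertical axes, from 0), by group. Points are samples, bars and caps the mean and SD (n = 4); the 4 abnormal *Letm1* ratios, 1.97 to 2.64, lie below all others, and the other 5 ratios overlap between groups.

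The respiratory chain was used as a second reference. Its 78 nuclear-encoded subunit genes had a median change of -0.39 between abnormal and normal fibers on TPM as deposited. Where 9.35% of all genes tested passed in either direction, 60 of these 78 fell past the threshold, with none higher. Relative to their mean log2 level in the same sample, *Micu2* was higher in abnormal than normal fibers by 0.85, *Micu3* by 0.69, *Mcu* by 0.68, *Smdt1* by 0.57 and *Mcur1* by 0.50. For these 5 the groups did not overlap, with p = 0.0286 each in the exact permutation test and 0.0667 after adjustment over 21 tests, so none passed. On this scale 62.8% of 5916 other genes with at least 5 TPM were also higher without overlap, with a median of 0.61. *Micu3*, *Mcu*, *Smdt1* and *Mcur1* thus lay near or below a typical gene. *Letm1* was higher by 0.32 (exact permutation p = 0.0857, adjusted 0.138) and *Slc8b1* by 0.76 (exact permutation p = 0.114, adjusted 0.171). *Smdt1* was lower relative to the chain in normal than in Young fibers by -0.27, without overlap, as were 8.81% of the genes.

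Of 8 other inner membrane genes linked to Ca2+ transport, 0 passed in any comparison in limma. Over all genes tested, 9.35%, 8.51% and 1.15% passed in abnormal against normal, abnormal against Young and normal against Young fibers. With 8 genes, 0 calls lay near these shares and does not show that the list was unchanged. At an unadjusted p under 0.05 there were 0, 1 and 1 of the 8, against 25.6%, 23.0% and 12.9% of all genes. *Mcub*, a gene for an inhibitory relative of the pore, was at 0 TPM in 9 of 12 samples and reached at most 0.408 TPM.

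Among 17 genes of the outer membrane and of contacts between mitochondria and the sarcoplasmic reticulum, 3 rose in abnormal against normal fibers and 0 fell, where 9.35% of all genes tested passed, with a median change of 0.16. *Itpr1*, which encodes an inositol trisphosphate receptor that releases Ca2+ from the reticulum, was measured at 9.57, 10.8, 8.51 and 7.89 TPM in the abnormal and 4.24, 4.19, 4.17 and 4.18 TPM in the normal samples, and at 3.71, 6.19, 4.96 and 4.06 TPM in Young fibers. The abnormal samples were all above the others, and the change was 0.96 (SE 0.15, adjusted p = 0.00277 in limma) against normal and 0.84 (adjusted p = 0.00470) against Young fibers. *Rmdn3*, a tether gene, rose from a mean of 1.68 to 3.17 TPM (0.65, adjusted p = 0.0345), but passed in only 9 of 24 alternatives. *Bcap31*, a reticulum membrane chaperone gene, rose from 65.0 to 79.1 TPM (0.28, adjusted p = 0.0494) and passed in 3 of 25 alternatives. In abnormal against Young fibers 2 genes of this list rose and 1 fell (background 8.51%). The 1 that fell was *Vdac1*, the main outer membrane channel gene, at -0.30 (adjusted p = 0.0348 in limma). In normal against Young fibers 0 passed in limma (background 1.15%), with 1 at an unadjusted p under 0.05 (background 12.9%). With TMM-type factors the median of the list between abnormal and normal fibers was -0.06.

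The 12 Ca2+-responsive enzymes and carriers, which respond to Ca2+ in the matrix or sense it from outside, moved in both directions. In abnormal against normal fibers 5 fell and 2 rose, against 9.35% of all genes passing, with a median of -0.13. *Idh3b*, a subunit gene of isocitrate dehydrogenase, was at 405, 372, 362 and 387 TPM in the abnormal against 545, 611, 543 and 539 TPM in the normal samples, a change of -0.55 (adjusted p = 0.000633 in limma), and *Idh3g* changed by -0.36 (adjusted p = 0.00618). *Ppif*, which encodes cyclophilin D, a regulator of the permeability transition that follows Ca2+ overload, was at 19.4, 17.2, 15.4 and 14.0 TPM in the abnormal against 29.2, 35.3, 29.2 and 29.8 TPM in the normal samples, a change of -0.87 (adjusted p = 0.000712). *Gpd2*, the Ca2+-sensing glycerol-3-phosphate dehydrogenase gene, rose from 61.2 ± 11.7 to 87.7 ± 8.79 TPM (SD, n = 4 each; 0.53, adjusted p = 0.0185), with a Young mean of 80.6 TPM. The other 3 that passed were *Idh3a* and *Slc25a12*, lower, and *Slc25a24*, higher at 0.554 against 0.156 TPM. Over 25 alternatives, *Gpd2* did not pass in 3, *Idh3g* in 2, and *Idh3b* and *Ppif* in 1 each. In abnormal against Young fibers 4 fell and 2 rose (background 8.51%), and in normal against Young fibers 0 passed in limma (background 1.15%), with 4 at an unadjusted p under 0.05 (background 12.9%).

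**Figure D4:**
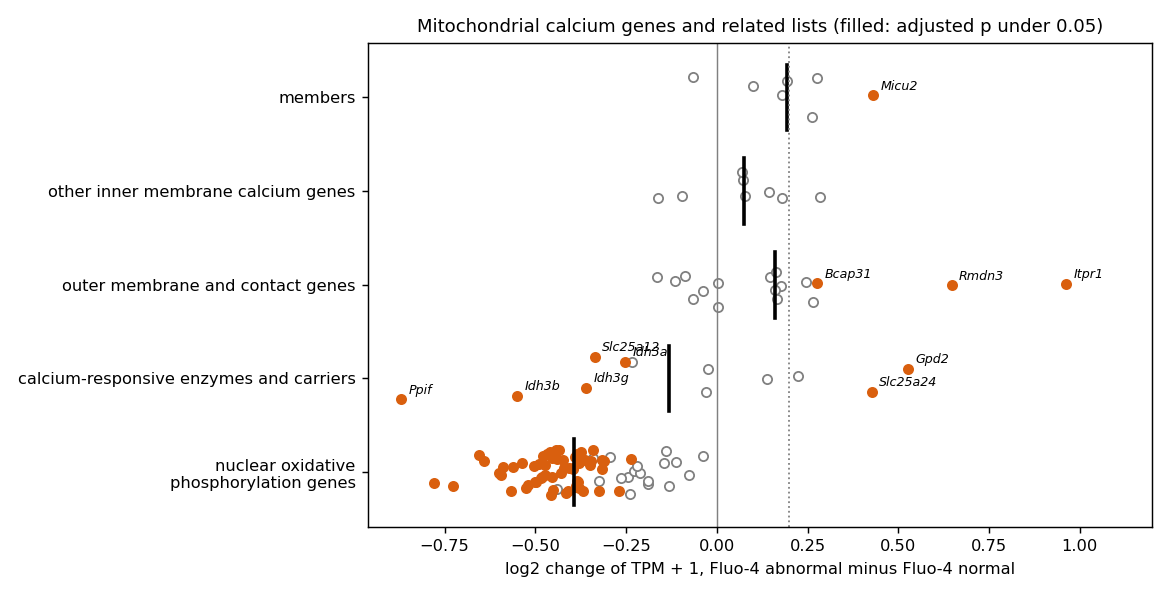
Log2 change of TPM + 1 between Fluo-4 abnormal and Fluo-4 normal fibers (horizontal axis) for the 7 members, the 3 related lists and the 78 respiratory chain genes. Each point is a gene, filled where the adjusted p was under 0.05, thick lines are list medians, and the dotted line is the median of genes with at least 5 TPM (0.20); the chain genes lie to the left of 0 and the member median is near the dotted line.

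The genes whose profile over the 12 samples was most like that of each member were found by the root mean square difference of centred log2(TPM + 1) among genes with at least 5 TPM. For *Micu2* these were *Ube2g2* (difference 0.05) and *Tsc22d3* (0.07), and for *Mcu* *Med9* and *Snx1* (both 0.08). For *Letm1* the closest was *Vdac1* (0.07), which was 0.30 lower in abnormal than Young fibers on the log2 scale, followed by *Babam1* (0.08). The others were *Pcmt1* and *Myadml2* for *Micu3*, *Tpgs1* and *Jtb* for *Smdt1*, *Rab22a* and *Cdkn2d* for *Mcur1*, and *Rexo4* and *Mapre1* for *Slc8b1*, whose closest match was looser at 0.15.

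In the mouse genome GRCm39 (GENCODE vM39), *Mcu* lies on chromosome 10 (59282806 to 59452522, minus strand, 8 exons in the canonical transcript) and *Micu2* on chromosome 14 (58153706 to 58236767, minus, 12 exons). *Micu3* lies on chromosome 8 (40760499 to 40839367, plus, 15 exons) and *Smdt1* on chromosome 15 (82223160 to 82235678, plus, 3 exons). *Mcur1* lies on chromosome 13 (43691869 to 43713738, minus, 9 exons), whereas *Letm1* (33897011 to 33940209, minus, 14 exons) and *Slc8b1* (120649173 to 120672102, plus, 16 exons) are both on chromosome 5. No transcript of another gene matched a member over 50% of its length at 95% identity. Apart from *Smdt1*, the annotated exons of *Mcu*, *Micu2* and *Micu3* overlap those of genes on the opposite strand, and where these had a value it was at most 2.14 TPM.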

How the data were processed

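RNA of 12 samples of EDL single fibers was analysed. The authors made SMART-Seq v4 libraries from 10 ng of RNA, used DRAGEN 4.3 with GRCm39 for alignment, and deposited TPM, a unit that keeps no read depth, so no counting interval was computed. The annotation release was not given in the sources used here. Values on repeated symbols (114) were summed. Protein-coding and mitochondrially-encoded genes with a mean of at least 0.02 TPM in 1 group (14425, all 7 members included) were tested on log2(TPM + 1) with limma 3.58.1 (R 4.3.3, 1 fit of 3 groups, variance trend) and Benjamini-Hochberg adjustment at 0.05. Ratios were tested by two-sided exact permutation (70 arrangements). The fit was tested on simulated data. Copies were searched with BLAST 2.17.0, and Python 3.11.15 was used.

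All members are named, and up to 4 genes per related list that passed between abnormal and normal fibers, by smallest p; *Mcub*, *Vdac1*, *Ndufa6*, *Idh3a*, *Slc25a12* and *Slc25a24* were named after their values were seen. 1 gene of the inner membrane list is not reported here. Members and lists were chosen with earlier results of these data known. Over 3035 genes, abnormal and normal samples of the same number deviated together (correlations of 0.55, 0.48, 0.48 and 0.34), so the aged numbers were treated as pairs in the replicate block, whereas the main limma fit and the 70 arrangements use no pairs. Neither the labels nor the methods say what a number marks. Alternatives were other scalings, filters and pseudocounts, all annotated genes, the replicate block, fewer samples, other variance models, the *Myh4* share and leaving out each sample.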

Additional observations from a re-analysis of the deposited data

Results flagged for a closer look

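Of 39 groups of 4 samples examined for a value far from the others, 3 held one, and chance flags about 1 in 20 groups. *Mcur1* in Fluo-4 abnormal replicate 2 was 20.5 TPM, with the other 3 samples at 14.2 to 14.8 TPM. The ratio of *Micu2* to *Mcu* in Fluo-4 normal replicate 4 was 1.60, against 1.28 to 1.31 in the other 3. The ratio of *Micu3* to *Mcu* in Young replicate 2 was 1.04, the sample in which *Mcu* was lowest at 10.1 TPM.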

How the results depend on the processing

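Between abnormal and normal fibers 1 member passed, and 0 did with TMM-type factors, with only the groups compared, with the *Myh4* share, or with the *Myh4* share and the replicate block. The genes passing, 1349, became 852, 567, 821 and 22 under these settings, 2281 with the replicate block, and 606 (without abnormal replicate 2) to 1420 when a sample was left out (members passing 0 to 2). With the replicate block and TMM-type factors together, added after the data were seen, 1311 genes passed and *Letm1*, lower, was the 1 member (adjusted p = 0.0468 in limma). In abnormal against Young fibers the replicate block gave 2 members, *Letm1* (lower) besides *Micu2*, and leaving out a sample gave 0 to 1 members and 576 to 1677 genes, both lowest without Young replicate 4. Aged and Young samples share only a number: same-numbered abnormal and Young samples correlated at 0.03 to 0.27, and abnormal replicate 1 correlated best with Young replicate 4. In normal against Young fibers 0 members passed under every alternative, and the 166 genes became 266 with a filter of 5 TPM, 320 with the replicate block, 69 with only the groups compared, 358 with quality weights and 45 (without Young replicate 2) to 184 without 1 sample. The replicate block changed no other call for a member.

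Small differences turned sign. Between abnormal and normal fibers, *Smdt1* was -0.046 and *Mcur1* -0.11 with TMM-type factors, with or without the block, *Letm1* 0.059 with the *Myh4* share, and *Slc8b1* relative to *Mcu* -0.070 from TPM + 1. Against Young fibers, *Smdt1* in abnormal fibers was 0.0031 with the *Myh4* share and *Mcur1* -0.076 with TMM-type factors. In normal fibers, TMM-type factors gave 0.031 for *Mcu* and 0.037 for *Mcur1*, scaling without mitochondrially-encoded genes 0.012 and 0.016, and the *Myh4* share -0.044 for *Micu3*. Leaving out a sample gave *Mcur1* -0.016 to 0.16 between abnormal and normal fibers. Between abnormal and Young fibers it gave *Smdt1* -0.050 to 0.050, *Mcur1* -0.028 to 0.15 and *Slc8b1* -0.014 to 0.23. Between normal and Young fibers it gave *Mcu* -0.11 to 0.031, *Micu2* -0.017 to 0.076, *Micu3* -0.032 to 0.063, *Mcur1* -0.073 to 0.054 and *Slc8b1* -0.19 to 0.033. The cause was not tested. Leaving out a sample raises the smallest exact p of a ratio test from 0.0286 to 0.0571, so those runs could not pass.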
